A study of Mus musculus with 2 samples.

Results

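Aminoacyl-tRNA synthetases are the enzymes that join each amino acid to its transfer RNA, and their genes were examined in 2 total RNA-seq libraries of mouse bone marrow progenitors. The genes were chosen by symbol: Ensembl rows annotated as protein-coding whose symbol is that of a synthetase of the cytosol or of the mitochondrion. This gave 37 genes, 20 of them cytosolic and 17 mitochondrial, of 43346 Ensembl genes and 21474 protein-coding genes in the tables. Both libraries carried the label megakaryocyte progenitor, also called CFU-Meg, the colony-forming precursor of platelet-producing cells. The cells were primary cells of adult male C57BL/6J mice aged 5 to 6 weeks, with no treatment or genetic change in the labels, and 1 ng of RNA went into each library. There was 1 group and no contrast, so levels were compared between genes, and the libraries with each other. The libraries came from separate biosamples under a single donor identifier, so the spread between them may be technical. How the cells were sorted was not analysed here.

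Each synthetase activity recognises 1 amino acid and the transfer RNAs for that amino acid, and several synthetases correct their own errors by editing. Cytosolic translation and the translation of the few proteins encoded by mitochondrial DNA use separate sets of enzymes, all encoded in the nucleus. Mitochondrial synthetases are made in the cytosol and imported. Mammals lack a mitochondrial glutaminyl-tRNA synthetase and form that charged transfer RNA by amidation, and the lysine and glycine enzymes of both compartments come from the genes Kars and Gars. Several cytosolic enzymes are held together with 3 scaffold proteins in the multisynthetase complex. In blood-forming cells, whose progenitors divide and synthesise protein at high rates, these genes are generally treated as housekeeping genes.

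The libraries held 75652762 to 82746658 expected counts, which are estimated reads per gene. Levels are given as TPM, the authors' measure of transcripts per unit of length scaled to a fixed total, which allows genes to be compared. The marker genes went against the label. Of 12 megakaryocyte markers, 2 reached 1 TPM in both libraries, none exceeded 3.54 TPM in either, the tubulin gene Tubb1 was listed at 0 in both, and together they summed to 12.2 TPM (replicate 1) and 8.56 TPM (replicate 2). The 7 granulocyte markers all exceeded 10 TPM in both libraries and summed to 16173 and 16750 TPM, 4 monocyte markers to 2846 and 3231 TPM, 7 erythroid markers to 541 and 284 TPM, and 3 mast cell and basophil markers to 95.1 and 103 TPM. The T cell gene Cd3e, the endothelial gene Cdh5 and the collagen gene Col1a1 were listed at 0 in both, while Pecam1, which blood progenitors share with endothelium, stood at 24.1 and 24.7 TPM. The values below therefore belong to libraries labelled megakaryocyte progenitor in which granulocyte genes led these marker lists. In bulk RNA, fewer cells of a type and less RNA per cell cannot be told apart.

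All 37 synthetase genes were detected at 1 TPM or more in both libraries, a level reached by 46.2% of protein-coding genes. The median synthetase stood at 16.3 TPM in each library and at 16.6 by the mean of the libraries, against 0.585 TPM for all protein-coding genes. A level of 10 TPM or more in both libraries was reached by 22 of the 37, against 24.1% of protein-coding genes. The lowest value in either library was the 1.34 TPM of Aars2 in replicate 2. Over all transcripts of a gene, no synthetase had fewer than 212 expected counts, so no gene total was near the limit of detection. Single transcripts could be lower: the protein-coding transcript of Ears2 had 33.44 and 17.85 expected counts.

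Cytosolic synthetases were several times more abundant than mitochondrial ones. The median cytosolic gene stood at 26.1 TPM (replicate 1) and 30.6 TPM (replicate 2). The median mitochondrial gene, with Lars2 set apart because its level was far from the rest, stood at 4.86 and 5.06 TPM. The ratio of the medians was 5.37 in replicate 1 and 6.06 in replicate 2, and 5.72 on mean TPM. The classes overlapped: cytosolic genes ran from 5.61 to 105 TPM and the 16 mitochondrial genes from 1.34 to 31.6 TPM over both libraries. In 88.8% of the 320 possible pairs of a cytosolic and a mitochondrial gene, the cytosolic gene had the higher mean TPM. A level of 10 TPM or more in both libraries was reached by 17 of 20 cytosolic genes and by 4 of these 16 mitochondrial genes. These are descriptions over genes, which are not replicates, and no test was made.

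**Figure D1:**
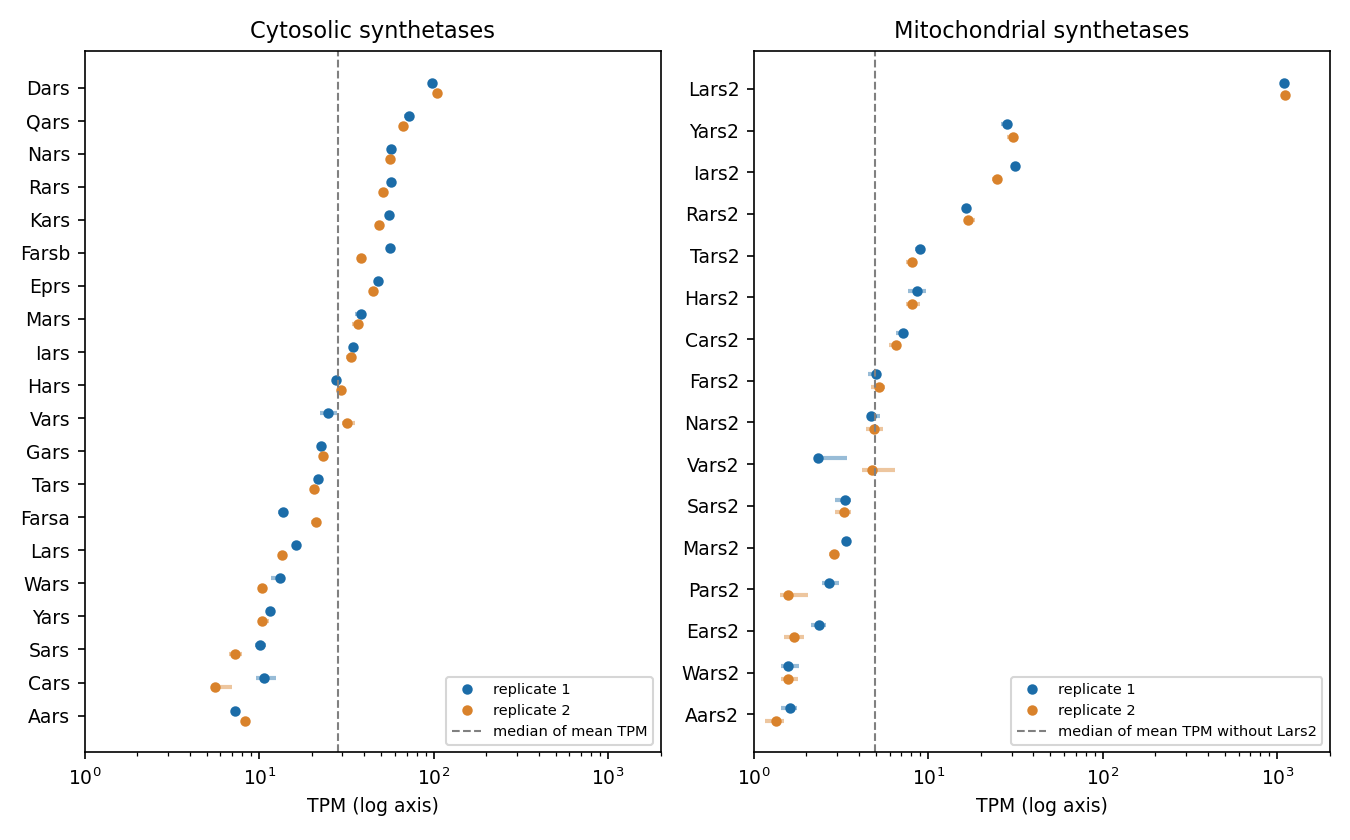
TPM of the reported synthetase genes on a log axis, cytosolic genes on the left and mitochondrial genes on the right; points are the values in replicates 1 and 2, horizontal bars the authors' credibility intervals and dashed lines the median of mean TPM (28.4 for cytosolic genes, 4.96 for mitochondrial genes without Lars2). Lars2 stands alone at 1087 and 1110 TPM, and the other mitochondrial genes lie mostly below the cytosolic ones.

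The promoters of the classes were read for 4 short motifs, to see what the genes share in sequence. RefSeq promoter windows on GRCm38.p6, from 250 bases before to 50 bases after each start site, matched 13 cytosolic and 14 mitochondrial synthetases. Members with no entry included Cars, Hars, Hars2, Lars, Nars, Pars2, Rars, Vars and Wars. The motifs were chosen after member promoters had been searched, matches on both strands were counted, and no match overlapped one of another motif. TGATGNAA, a form of the amino acid response element bound by ATF4, stood in the windows of the cytosolic genes Aars, Gars, Iars, Tars and Yars and in none of the 14 mitochondrial windows, against 3.97% of all 32851 windows. GCATGCGC, a core of the binding site of NRF1, a regulator of nuclear genes for mitochondrial proteins, stood in the windows of the mitochondrial genes Rars2, Vars2 and Wars2 and in none of the 13 cytosolic windows, against 2.71% of all windows. CCGGAAG, a core bound by ETS factors, stood in 5 cytosolic windows (Farsa, Gars, Kars, Mars and Sars) and 4 mitochondrial ones (Cars2, Mars2, Rars2 and Sars2), against 8.86% of all windows. CACGTG, an E-box, stood in 4 cytosolic windows (Aars, Farsb, Iars and Tars) and in that of Ears2, against 7.15% of all windows. A match describes the letters and is no measured binding site.

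The promoter stretches that hold the amino acid response element or the NRF1 core upstream of the start site and outside annotated exons are shown 5′ to 3′ on the strand of the gene, with the motif in capitals. Those of Gars (chr6:55037931-55038000, plus strand) and Tars (chr15:11399666-11399713, minus strand) hold the reverse complement of the amino acid response element. Those of Vars2 (chr17:35667593-35667678, minus strand) and Wars2 (chr3:99140986-99141067, plus strand) hold the NRF1 core, which occurs 2 times in Vars2 and as its reverse complement in Wars2.
Gars: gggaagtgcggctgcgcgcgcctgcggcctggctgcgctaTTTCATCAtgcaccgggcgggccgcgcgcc
Tars: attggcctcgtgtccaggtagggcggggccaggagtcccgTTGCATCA
Vars2: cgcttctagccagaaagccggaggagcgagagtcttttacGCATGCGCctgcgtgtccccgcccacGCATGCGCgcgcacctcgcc
Wars2: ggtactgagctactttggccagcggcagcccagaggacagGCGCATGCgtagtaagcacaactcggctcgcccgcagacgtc
The 5 cytosolic genes with the response element covered much of the range of their class, from Aars at 7.26 and 8.33 TPM to Iars at 34.4 and 33.7 TPM. Of the 3 mitochondrial genes with the NRF1 core, Wars2 and Vars2 lay below their class median by mean TPM and Rars2 above it.

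Among cytosolic enzymes, those of the multisynthetase complex were the more abundant. The 8 complex members had a median of 49.3 TPM on mean TPM and the 12 enzymes outside it a median of 19.4 TPM, with ranges that overlapped. Every complex member exceeded 10 TPM in both libraries. The aspartate enzyme gene Dars (ENSMUSG00000026356.11, minus strand, chr1:128363707-128417368) was the highest cytosolic gene, at 97.8 TPM in replicate 1 (94.6 to 98.1) and 105 TPM in replicate 2 (101 to 105). Ranges in parentheses are the authors' credibility intervals, whose level is not stated and which surround a posterior mean, so that the listed TPM can lie outside them. Qars, the glutamine enzyme, stood at 72.0 TPM (67.9 to 75.7) and 67.2 TPM (63.1 to 70.8). Rars, the arginine enzyme, stood at 56.9 TPM (54.7 to 57.9) and 51.3 TPM (49.3 to 52.1). Only the intervals of Qars overlapped between the libraries among these 3 genes. Eprs encodes a single protein with a glutamate and a proline enzyme, and stood at 48.1 TPM (46.4 to 48.8) and 44.7 TPM (43.1 to 45.4). The methionine enzyme Mars stood at 38.3 and 36.6 TPM. The isoleucine enzyme Iars stood at 34.4 and 33.7 TPM. Eprs, Mars and Iars lay below the median of the complex. The lowest complex member was Lars, the leucine enzyme that also serves as a leucine sensor for growth signalling, at 16.3 TPM (15.6 to 16.6) and 13.6 TPM (12.9 to 13.8). Complex members spanned 6.77-fold between Dars and Lars by mean TPM over all transcripts. On protein-coding transcripts alone Qars was the lowest, at 6.48 and 5.01 TPM, and the span from Dars was 17.5-fold. This leaves out a Qars transcript whose type could not be matched, at 13.52 and 10.55 TPM. The rank of Qars and the span therefore depend on the type of that transcript.

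The 3 scaffold genes of the complex lay within the range of its enzymes. Aimp1 stood at 37.3 and 41.7 TPM. Eef1e1, also called Aimp3, stood at 38.8 and 35.7 TPM. Aimp2 stood at 25.7 and 25.4 TPM. The order of Aimp1 and Eef1e1 changed between the libraries, and Aimp2 was the lowest of them in both.

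Outside the complex, the asparagine enzyme Nars led at 57.0 TPM (54.9 to 57.2) and 56.3 TPM (54.2 to 56.6). The histidine enzyme Hars stood at 27.5 and 29.3 TPM. The threonine enzyme Tars stood at 21.7 and 20.7 TPM. These 3 genes differed little between the libraries. The valine enzyme Vars stood at 24.7 TPM (22.4 to 27.9) and 31.9 TPM (29.8 to 35.3), and its intervals did not overlap. Wars, the tryptophan enzyme, stood at 13.1 TPM (11.7 to 14.0) and 10.4 TPM (9.81 to 11.1). Yars, the tyrosine enzyme, stood at 11.5 and 10.4 TPM, level with Wars in replicate 2. The lowest cytosolic genes by mean TPM were Aars, Cars and Sars. Aars, the alanine enzyme, whose editing activity removes serine, stood at 7.26 TPM (6.95 to 7.70) and 8.33 TPM (7.96 to 8.84). Cars, the cysteine enzyme, stood at 10.6 TPM (9.63 to 12.5) and 5.61 TPM (5.45 to 6.98). Sars, the serine enzyme, stood at 10.2 TPM (9.52 to 10.9) and 7.27 TPM (6.73 to 7.93). The order of these 3 genes was not the same in the libraries: Aars was lowest in replicate 1 and Cars in replicate 2. By structural class of the enzyme, the 9 class I genes had a median of 28.3 TPM and the 10 class II genes of 25.7 TPM, a small difference beside the range within either.

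The cytosolic phenylalanine enzyme is a tetramer of α subunits, encoded by Farsa, and β subunits, encoded by Farsb, in equal number. Farsa (ENSMUSG00000003808, chr8:84856989-84869257, plus strand) stood at 13.7 TPM (12.8 to 14.4) in replicate 1 and 21.3 TPM (19.9 to 22.2) in replicate 2. Farsb (minus strand, chr1:78417975-78488897) stood at 56.1 TPM (54.0 to 57.0) and 38.5 TPM (37.1 to 39.6). The β subunit gene was higher in both libraries, and the genes differed between the libraries in opposite directions, so the ratio of Farsb to Farsa was 4.09 (replicate 1) and 1.81 (replicate 2). Only 5.29 and 5.75 TPM of Farsa fell on protein-coding transcripts, against 40.9 and 31.4 TPM of Farsb.

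Kars and Gars each supply an enzyme to both compartments. Kars (ENSMUSG00000031948, minus strand, chr8:111993443-112011323) stood at 55.7 TPM (53.5 to 56.2) and 48.8 TPM (46.7 to 49.3). Its transcript ENSMUST00000034426.8, with a coding sequence of 595 codons, took 84.1% and 87.4% of its TPM. The transcript ENSMUST00000093120.7, with 624 codons, took 15.4% and 12.6%, which is 8.58 and 6.14 TPM. In mammals the longer form of the lysine enzyme is the one imported into mitochondria, and the TPM of its transcript lay within the range of the mitochondrial class. Gars, mutated in an inherited neuropathy, stood at 22.7 TPM (21.6 to 23.1) and 23.3 TPM (22.1 to 23.8). A single Gars transcript is listed. The forms of the glycine enzyme are known to differ in the start codon used, so they could not be separated here.

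Most mitochondrial synthetases lay below 10 TPM. After Lars2, the tyrosine enzyme Yars2 (plus strand, chr16:16302965-16309640) stood at 28.3 TPM (25.9 to 29.6) and 30.7 TPM (28.4 to 32.4). The isoleucine enzyme Iars2 stood at 31.6 TPM (30.0 to 32.1) and 24.7 TPM (23.3 to 25.2), and was higher than Yars2 in replicate 1 and lower in replicate 2. Rars2, the arginine enzyme, stood at 16.4 and 16.8 TPM, below Yars2 and Iars2 in both libraries. The threonine enzyme Tars2 stood at 8.98 and 8.05 TPM. The histidine enzyme Hars2 stood at 8.58 and 8.01 TPM. The cysteine enzyme Cars2 stood at 7.17 and 6.55 TPM. These 3 genes kept their order in both libraries, though the intervals of Tars2 and Hars2 overlapped. The phenylalanine enzyme Fars2 stood at 5.0 and 5.23 TPM. The asparagine enzyme Nars2 stood at 4.72 and 4.88 TPM. The intervals of Fars2 and Nars2 overlapped in both libraries, so these genes could not be ordered. The serine enzyme Sars2 stood at 3.31 and 3.29 TPM. The methionine enzyme Mars2 stood at 3.37 TPM (3.18 to 3.45) and 2.87 TPM (2.70 to 2.96). Vars2, the valine enzyme, is described with the library comparison below.

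At the bottom of the mitochondrial class stood 4 genes under 3 TPM in both libraries. Pars2, the proline enzyme, stood at 2.71 TPM (2.47 to 3.08) and 1.57 TPM (1.41 to 2.06). Ears2, the glutamate enzyme that also supplies the precursor of glutaminyl-tRNA, stood at 2.35 TPM (2.11 to 2.58) and 1.70 TPM (1.49 to 1.93). Both were lower in replicate 2, with intervals apart. Wars2, the tryptophan enzyme, stood at 1.57 TPM in both libraries (1.43 to 1.82 and 1.44 to 1.80). Aars2, the alanine enzyme, stood at 1.61 TPM (1.42 to 1.77) and 1.34 TPM (1.16 to 1.49). Wars2 and Aars2 could not be ordered, since their intervals overlapped in both libraries. The 3 genes of the amidation step that follows Ears2 were higher than it in both libraries. Gatc stood at 32.9 and 29.0 TPM, Qrsl1, the catalytic subunit, at 10.2 and 9.10 TPM, and Gatb at 3.81 and 3.22 TPM.

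Set beside the rest of the mitochondrial translation apparatus, the 16 mitochondrial synthetases were low. The 77 mitochondrial ribosomal protein genes had a median of 28.6 TPM with a range of 5.0 to 118 on mean TPM. For the 9 mitochondrial translation factors it was 8.76 TPM, and the elongation factor Tufm, at 35.2 and 38.6 TPM, Gfm1 and Tsfm were the highest. For the 10 genes of mitochondrial tRNA maturation it was 9.95 TPM, with Hsd17b10, at 57.1 and 45.7 TPM, Trnt1 and Mto1 the highest. All genes of these 3 lists exceeded 1 TPM in both libraries. The 8 synthetase-like and editing genes, which include the deacylases that remove wrongly attached amino acids, had a median of 11.7 TPM, and their highest were Yrdc at 23.5 and 24.5 TPM, Prorsd1 and Aarsd1. No test was made of these differences between lists.

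Lars2, the mitochondrial leucine enzyme (ENSMUSG00000035202, chr9:123366927-123462666, plus strand), stood far above all other synthetases. It was listed at 1087 TPM in replicate 1 and 1110 TPM in replicate 2, with 252692 and 239730 expected counts. Its mean was 1098 ± 16.9 TPM (SD, n = 2), which ranked 59 among nuclear protein-coding genes, while Dars, the next synthetase, ranked 564. Lars2 alone took 68.4% and 69.7% of all expected counts of the 37 genes, and 0.305% (95% Wilson interval 0.304 to 0.307) and 0.317% (0.316 to 0.318) of the counts of all Ensembl genes. These intervals cover counting error only. The deposited credibility intervals, 1065 to 1073 and 1087 to 1096, belong to the posterior mean and lie below the listed TPM. The other 16 mitochondrial genes together took 5.90% and 5.46% of the synthetase counts.

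All Lars2 signal was assigned to 1 transcript, ENSMUST00000038863.7, of 3881 bases in the deposited tables. The counts are whole numbers, so no fractional share of reads went to another gene. Whole counts do not show that each read matched Lars2 alone. The M21 sequence of this transcript, of 3894 bases, was compared with all other GENCODE M21 transcripts with blastn at an e-value limit of 1e-10. It matched 2 noncoding transcripts, both over the same stretch of its 3′ UTR, the UTR feature at chr9:123461676-123462664. Bases 3278 to 3349 of the transcript, at chr9:123462048-123462119, matched the antisense gene Gm15564 at 98.6% identity over 72 aligned bases. Bases 3163 to 3349, at chr9:123461933-123462119, matched AA474408 at 80.1% over 196 aligned bases. Gm15564 was listed at 0 in both libraries and AA474408 at 3.11 and 2.72 TPM. There was no match to the mitochondrial ribosomal RNA genes mt-Rnr1 and mt-Rnr2 or to the abundant noncoding gene Gm42418 at that limit. The tables give no read positions, so whether the reads of Lars2 lie in this stretch was not tested.

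For 15 of 17 amino acid pairs the cytosolic gene had the higher mean TPM, with Eprs taken as the partner of both Ears2 and Pars2 and Farsa as that of Fars2. In 14 of these the credibility interval of the cytosolic gene lay above that of the mitochondrial gene in both libraries. The median ratio of cytosolic to mitochondrial mean TPM over the 17 pairs was 3.43. The widest differences were those of Eprs over Ears2, at 22.9-fold, and Eprs over Pars2, at 21.7-fold, followed by Mars over Mars2, at 11.4-fold in replicate 1 and 12.8-fold in replicate 2, and Nars over Nars2, at 12.1-fold and 11.5-fold. The narrowest with intervals apart in both libraries was Iars over Iars2, at 1.21-fold. This order held for the sum of all transcripts of a gene. On protein-coding transcripts alone, Eprs stood 165-fold over Ears2, Mars 5.50-fold over Mars2, Iars 2.57-fold over Iars2 and Farsa 1.08-fold over Fars2. The size of the first ratio is uncertain. The coding transcript of Ears2 stood at only 0.28 TPM (0.081 to 0.57) and 0.16 TPM (2.8e-05 to 0.43). Farsa and Fars2 could not be ordered on coding transcripts. The intervals of the main Farsa coding transcript, 2.05 to 6.34 and 3.45 to 6.72 TPM, held the TPM of Fars2 in both libraries. For Mars, a transcript of 621 bases with 550 coding bases held 13.7 and 14.8 TPM. The Mars transcript of 2939 bases stood at 3.96 and 1.91 TPM, beside 3.37 and 2.87 TPM for Mars2. Cars and Cars2 had no stable order over all transcripts, since Cars was 1.48 times Cars2 in replicate 1 and 0.856 times in replicate 2. On protein-coding transcripts alone Cars2 had the higher listed TPM in both libraries, at 7.17 and 6.55 against 6.61 and 5.50 for Cars. The largest Cars coding transcripts had intervals of 4.28 to 5.93 and 0.736 to 1.87 TPM in replicate 1. In replicate 2 these were 3.23 to 4.90 and 0.682 to 1.87 TPM. No interval was given for their sum, so this order is not settled either.

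Over all transcripts, the mitochondrial gene was the higher one in both libraries in 2 pairs, with intervals apart. Lars2 exceeded Lars by 73.4-fold on mean TPM. Yars2 exceeded Yars by 2.68-fold, with Yars2 at 28.3 and 30.7 TPM and Yars at 11.5 and 10.4 TPM. Unlike Lars2, Yars2 lay within the range of other synthetases, and its counts, 2449 and 2223, were whole. On protein-coding transcripts alone Yars2 still stood at 23.8 and 22.7 TPM against 9.59 and 8.29 TPM for Yars. For the leucine and tyrosine enzymes the order of the compartments was thus the opposite of that in 14 pairs.

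**Figure D2:**
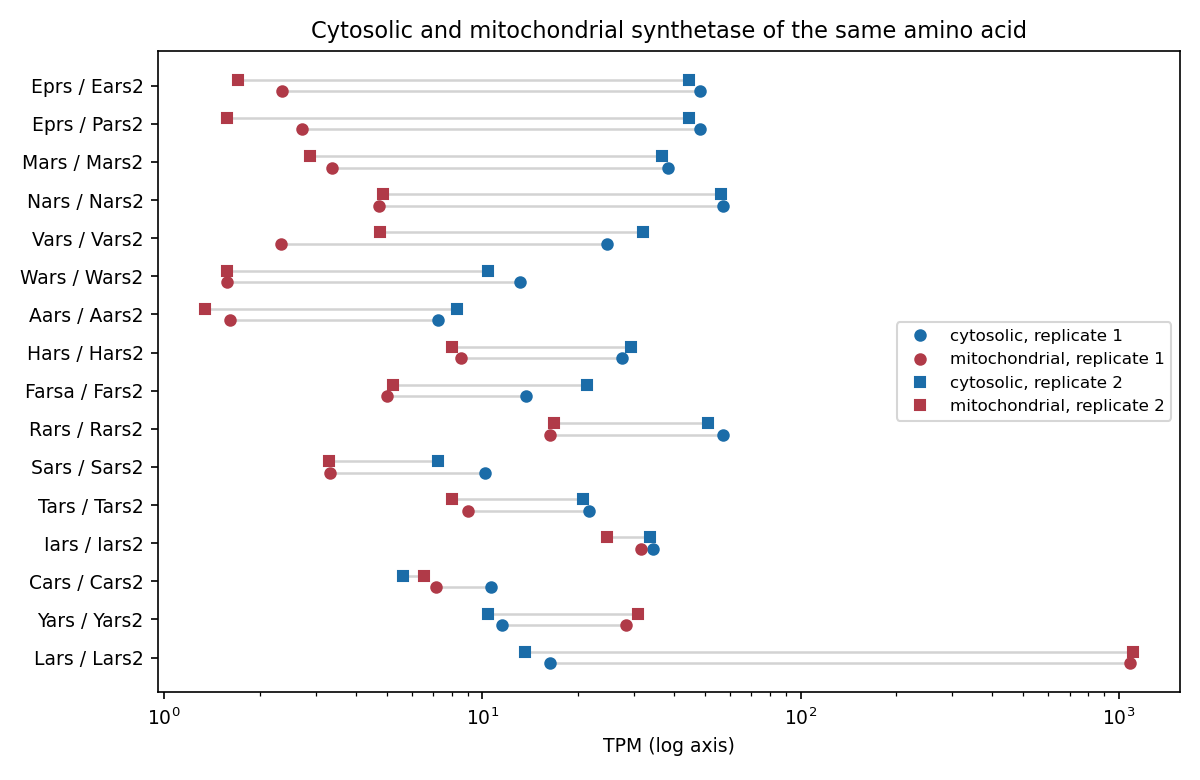
TPM on a log axis of the cytosolic (blue) and mitochondrial (red) synthetase in 16 amino acid pairs, in replicate 1 (circles) and replicate 2 (squares), with pairs ordered by the ratio of mean TPM from 22.9 for Eprs over Ears2 down to Lars and Lars2. Red lies to the right of blue in both libraries only for Yars2 and Lars2, and for Cars2 in replicate 2.

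Between the libraries the synthetases differed by less, at the median, than all genes tested, whose levels were not matched to theirs. Reads of each gene were compared with an exact two-sided binomial test, adjusted by the Benjamini-Hochberg method over 14304 genes, which compares these 2 libraries and not conditions. None of the 37 passed an adjusted p under 0.05 together with an absolute log2 ratio of 1 or more, against 7.66% of all genes tested. The largest absolute log2 ratio of a synthetase was 0.64, so the fold alone sets this count to 0, at an unadjusted p and with DESeq2 size factors too. Without the fold, 23 of the 37 had an unadjusted p under 0.05. By adjusted p alone, 9 synthetases were higher in replicate 2 (29.4% of all genes) and 12 were lower (29.7% of all genes), which is near the background in both directions. The median absolute log2 ratio of scaled counts was 0.13 for the 37 genes and 0.21 for all genes, and the median signed ratio of replicate 2 over replicate 1 was -0.03 and 0.00. The biological coefficient of variation over all genes was 0.209 (edgeR). The summed TPM of the erythroid markers also differed between the libraries, at 541 and 284. Most of both sums was Car1, at 512 and 242 TPM. By log2 ratio, 4 of the 7 markers were higher in replicate 2 and 3 were lower, so the sum gives no shared direction. The part of these markers in the differences of the synthetases was not tested.

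The ratio of scaled counts, replicate 2 over replicate 1, was highest for Farsa at 0.55 on the log2 scale (adjusted p = 7.69e-27 by the exact binomial test), with 1431 and 1895 expected counts. It was lowest for Ears2 at -0.64 (adjusted p = 1.27e-09 by the exact binomial test), with 537 and 309 expected counts. Pars2 followed at -0.56, with 347 and 212 expected counts, then Farsb at -0.45, with 6036 and 3972. Vars stood at 0.41, with 3450 and 4129. These p-values cover the counting error of reads between 1 library and another, and reads amplified from 1 ng of RNA are not independent molecules. The credibility intervals of 18 synthetases did not overlap between the libraries, 12 of them with the higher TPM in replicate 1 and 6 in replicate 2. The share over all genes was not computed, so these counts describe the members only and set nothing apart from other genes.

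For a few genes TPM and counts gave different pictures. Vars2 (minus strand, chr17:35655634-35667592) stood at 2.33 TPM (2.48 to 3.42) and 4.78 TPM (4.17 to 6.40), a log2 TPM ratio of 1.04, while its counts were 559 and 611, a log2 ratio of 0.28. Its protein-coding transcript took 54.1% of its TPM in replicate 1 and 8.81% in replicate 2, and retained-intron transcripts, several of them short, took 42.9% and 78.4%. Cars went from 10.6 to 5.61 TPM, a log2 TPM ratio of -0.92, while its counts, 1090 and 794, gave -0.31. Retained-intron transcripts took 37.9% of the TPM of Cars in replicate 1 and 1.79% in replicate 2, mainly through 1 transcript of 384 bases that held 3.24 TPM and then 0. TPM is divided by transcript length, so few reads assigned to a short transcript weigh heavily. On protein-coding transcripts alone Cars stood at 6.61 and 5.50 TPM and Vars2 at 1.26 and 0.42 TPM.

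**Figure D3:**
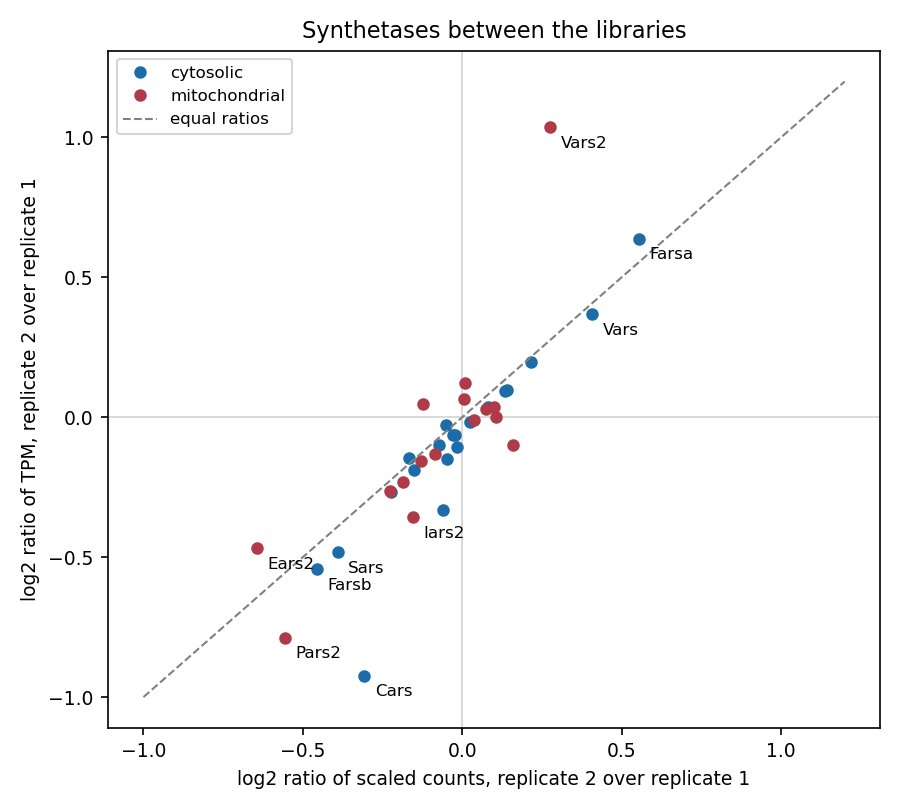
Each point is a synthetase gene, with the log2 ratio of replicate 2 over replicate 1 of scaled counts (horizontal) and of TPM (vertical); the dashed line marks equal ratios. Most genes lie near the line and near 0, while Vars2 (0.28 by counts, 1.04 by TPM) and Cars (-0.31 and -0.92) lie off it.

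Transcript types of the GENCODE annotation divided the genes further. Of the 37, 20 had over 90% of their TPM on protein-coding transcripts, and 14 had no TPM on any other type or listed no other type. In 8 genes, or 21.6%, protein-coding transcripts took under 50% of the TPM, against 11.2% of 9911 nuclear protein-coding genes of at least 1 TPM in both libraries. By expected counts, which do not favour short transcripts, 7 genes, or 18.9%, lay under 50%, against 6.57% of those genes. Qars was among them with a transcript of unmatched type counted as not protein-coding. That transcript held 1690 and 1225 of the 4158 and 3565 expected counts of Qars, so its place there depends on that type. The 8 genes included Qars at 8.23%, Ears2 at 10.7%, Vars2 at 31.4%, Farsa at 32.8%, Vars at 45.4%, Mars at 45.8% and Iars2 at 47.2%, as means of the libraries. They were 4 cytosolic and 4 mitochondrial genes. Iars2 was the one that passed 50% by counts, at 71.6%.

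The transcript types that held the rest of the TPM differed by gene. The shares are assignments of total RNA reads to annotated transcripts. Whether mature messages of these types were present was not tested. In Ears2 a pair of retained-intron transcripts took 88.1% and 90.6% of the TPM, and the coding transcript stood at 0.28 and 0.16 TPM. In Farsa a transcript annotated as a target of nonsense-mediated decay, the pathway that degrades messages with early stop codons, stood at 6.15 and 10.9 TPM, beside 5.29 and 5.75 TPM for the coding one. The higher TPM of Farsa in replicate 2 thus lay mainly on that transcript and on retained-intron transcripts, which went from 2.24 to 4.63 TPM. Qars was spread over many short retained-intron transcripts, with 58.1% and 62.7% of its TPM, and a further 18.8% and 15.7% on a transcript whose type had no match in M21. Its retained-intron transcript ENSMUST00000137655.1 stood at 21.3 and 5.0 TPM, ENSMUST00000136293.1 at 9.0 and 13.9 TPM and ENSMUST00000192659.1 at 3.97 and 12.8 TPM. The intervals of the last of these and ENSMUST00000136293.1 overlapped in replicate 2, so no single retained-intron transcript could be named as the highest there. In 30 of the 37 genes the transcript with the highest share was protein-coding.

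**Figure D4:**
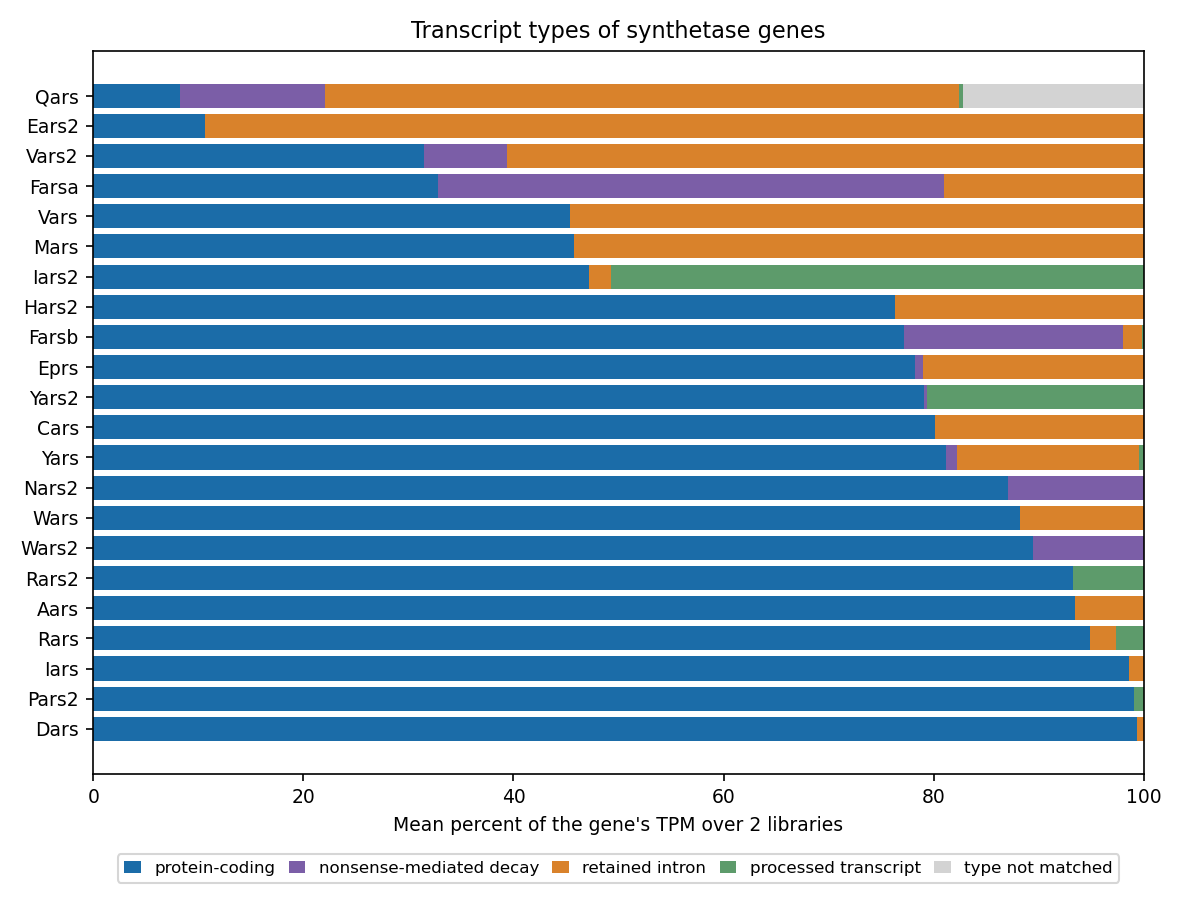
Bars give the mean percent of each gene's TPM over 2 libraries by transcript type, for 22 synthetase genes with some TPM outside protein-coding transcripts, ordered by the protein-coding share. The share rises from 8.23% for Qars to over 99% for Dars, and Qars, Ears2, Vars2, Farsa, Vars, Mars and Iars2 lie under 50%.

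Some synthetase values carry uncertainty from neighbours and copies. Expected counts were fractional, so that reads were divided with other features, for 8 genes, among them Cars2, Farsb, Hars, Hars2, Iars, Iars2 and Qars. Exons of 14 synthetases overlap those of a gene on the opposite strand, and the use of strand in counting is not stated. The longest overlap was that of Iars2 with Rab3gap2, over 2034 bases, and Rab3gap2 stood at 15.4 and 14.9 TPM. Hars and Hars2, which are transcribed in opposite directions from neighbouring starts, share 195 exonic bases. Mars shares 68 with Ddit3, a stress response gene at 7.79 and 9.76 TPM.

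The genes of the amino acid response, which includes known regulators and targets that respond with the synthetases to amino acid shortage, were present in part. A level of 1 TPM in each library was met by 14 of 20 list genes, and the list median was 9.14 TPM. The transcription factor Atf4 was the highest, at 88.9 and 126 TPM, followed by the serine synthesis genes Psat1, at 53.5 and 56.8 TPM, and Phgdh, at 56.9 and 44.9 TPM. Trib3, an induced target, had 1 expected count in replicate 1 and was listed at 0 in replicate 2. Of the 18 genes tested, none was called with the fold, against 7.66% of all genes tested. Their largest absolute log2 ratio was 0.72, so the fold alone sets this count to 0. Trib3 and Ddit4 did not pass the expression filter and were not tested. Ddit4 had 7 expected counts in replicate 1 and 84 in replicate 2. By adjusted p alone, 9 of the 18 were higher in replicate 2 and 3 were lower, against 29.4% and 29.7% of all genes. The 5 cytosolic synthetases with the response element did not share a direction: by adjusted p alone Aars (0.22 on the log2 scale) and Gars (0.08) were higher in replicate 2, Yars (-0.17) and Iars (-0.05) were lower, and Tars (-0.02) did not pass.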

How the data were processed

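Total RNA-seq of 2 libraries of 1 group was used. The authors used mm10 and GENCODE M4, per the deposited file lists. The aligner, quantifier and strand setting were not given in the sources used here. The deposited expected counts are estimated reads. The authors' TPM and FPKM are scaled per length and library. The deposited score columns are bounds of a credibility interval of TPM, of unstated level, around the posterior mean. The deposited percent values give each transcript's part of its gene's TPM. Symbols, types and positions came from GENCODE M21 (GRCm38, the assembly of mm10), matching 42462 of 43346 Ensembl rows.

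Members and lists were chosen with earlier results of these data known. Expected counts were rounded, filtered with filterByExpr and scaled by TMM in edgeR 4.0.16 (R 4.3.3); genes were compared by an exact binomial test at the TMM-scaled library sizes, with a prior count of 2 for log2 ratios. The fit script was tested on simulated data. DESeq2 1.42.0 size factors, FPKM, posterior means, rescaling, other filters and single libraries were alternatives. BLAST 2.17.0 compared transcripts. Of 95 list symbols, 92 matched. Named with intervals were Lars2, the 4 highest and 3 lowest of each class, Kars, Gars, Farsa, Farsb, Eprs, Ears2, Pars2 and members whose intervals did not overlap or whose ratio was extreme. Values of 1 member and 1 marker gene are not reported here; they stay in the counts and medians.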

Additional observations from a re-analysis of the deposited data

How the results depend on the processing

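The ratio of the cytosolic to the mitochondrial median kept its size with Lars2 counted, with posterior mean TPM and in each library alone (5.37 to 6.06). It was 5.73 with FPKM and 5.72 with TPM rescaled over nuclear protein-coding genes. Both multiply all genes of a library by a common factor, so they could hardly move the ratio. Leaving out Kars and Gars could not move it either, since they lie on either side of the cytosolic median. With protein-coding transcripts only, an alternative chosen after seeing the data, the ratio was 5.13. The count of pairs with the cytosolic gene higher stayed between 14 and 15 under the alternatives run. The synthetase median of 16.6 TPM was 41.0 when TPM was rescaled over nuclear protein-coding genes, which the smaller total produces by construction, 8.94 with protein-coding transcripts only, and 16.29 to 16.34 in single libraries. The count of synthetases that differed between the libraries was 21 by adjusted p alone; with the fold required it was 0 under each alternative, which the fold alone decides. The median log2 ratio stayed at -0.03 under the alternatives run. Posterior means kept 32 of 37 members within 1 SD of their TPM, and protein-coding transcripts only kept 21. No paired analysis was possible because there is 1 group. With 2 libraries, an SD rests on a single difference, and the levels hold for these libraries, whose markers went against the label.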
